A study of Mus musculus with 20 samples.

Results

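The genes examined were 10 that encode proteins of the tight junction: the claudin genes Cldn2, Cldn3, Cldn4, Cldn7, Cldn8, Cldn15, and Cldn23, the occludin gene Ocln, the junctional adhesion molecule gene F11r, and the scaffold gene Tjp1. They were chosen by name from the 19887 genes of the cecum count table, and all 10 passed the filter on low counts that left 15348 genes to be tested. RNA was from the cecum of 20 C57BL/6 mice, 5 on each diet. All mice had eaten the Total Western Diet (TWD), a rodent diet modelled on American nutrient intakes, for 6 weeks from 3 weeks of age, and then ate the TWD with 0, 2, 5, or 10% resistant (raw) potato starch (RPS) for 3 weeks. The labels give no sex or cage, and the mice of each diet are numbered here from 1 to 5.

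Tight junctions seal the space between neighbouring epithelial cells near the gut lumen. Claudins, which span the cell membrane, form the strands of the junction, and the mix of claudins sets whether ions and water can pass between cells. Occludin and junctional adhesion molecules lie beside the claudins, and scaffold proteins such as ZO-1, the product of Tjp1, tie them to the actin cytoskeleton.

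Cldn4 was the member that was downregulated past the threshold. It was lower with 10% RPS than with 0% RPS by a fold change of 0.444, and it was about as low with 5% RPS. The other 9 members passed the threshold in no comparison of diets. Among the 94 other junction genes tested, 1 (Epha2) was called with 10% RPS, as downregulated, beside 1.04% of all genes called. Neither call was stable. That of Cldn4 was kept in 2 of 10 fits that each omitted 1 mouse and in 7 of 14 other settings. That of Epha2 was lost in 6 of those 10 fits. Over the 10 fits the log2 fold change with 10% RPS was -1.36 to -1.06 for Cldn4 and -1.41 to -1.14 for Epha2. The samples were pieces of whole tissue, in which fewer cells of a type and less RNA per cell cannot be told apart.

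Total counts were 14967798 to 42687283 per mouse, and the members held 0.192 to 0.266% of them. The lowest count of any member in any mouse was 141, of Cldn8. A share of 13.02 to 15.39% of counts was mitochondrial in 3 libraries (mouse 5 on 0%, mouse 3 on 2%, and mouse 4 on 5% RPS), against 8.998 to 11.48% in the other 17. Cldn3 was highest of its diet in all 3 of these libraries, and Ocln and Cldn8 were lowest of their diets in all 3. Cldn3 was 518 to 721 CPM in the 3 and 249.6 to 472 CPM in the other 17. Ocln was 74.7 to 82.7 CPM in the 3 and 97.9 to 112.8 CPM in the other 17. Results are therefore given without them where it matters.

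Levels per gene length differed widely between members. On the scale of CPM (counts scaled to the library size) per kilobase of exon, averaged over the 20 mice, Cldn7 was highest with 398 ± 43.3 (SD), followed by Cldn3 with 295 ± 91.8. Then came Cldn4 with 98.8 ± 45.2, F11r with 93.6 ± 6.27, and Cldn15 with 83.1 ± 7.05. Lower levels were those of Cldn23 with 35.9 ± 4.24, Tjp1 with 18.2 ± 1.88, and Ocln with 10.7 ± 1.16. The lowest were Cldn2 with 7.88 ± 1.55 and Cldn8 with 4.73 ± 1.86. In this order the ranges over mice did not overlap between Cldn3 and Cldn4, between Cldn15 and Cldn23, between Cldn23 and Tjp1, or between Tjp1 and Ocln. The ranges of the other neighbours overlapped, and Cldn4 was above F11r in 11 of 20 mice. Exon length was the merged length of all annotated exons of a gene, not that of the transcripts expressed in the cecum. The order between genes rests on that choice. The place of Cldn4 differed by diet on this scale. Its mean was 149 with 0% and 115 with 2% RPS, above F11r with 100.2 and 92.5, but 64.9 with 5% and 66.3 with 10% RPS, below F11r with 91.8 and 89.9 and below Cldn15 with 86.5 and 83.7.

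**Figure D1:**
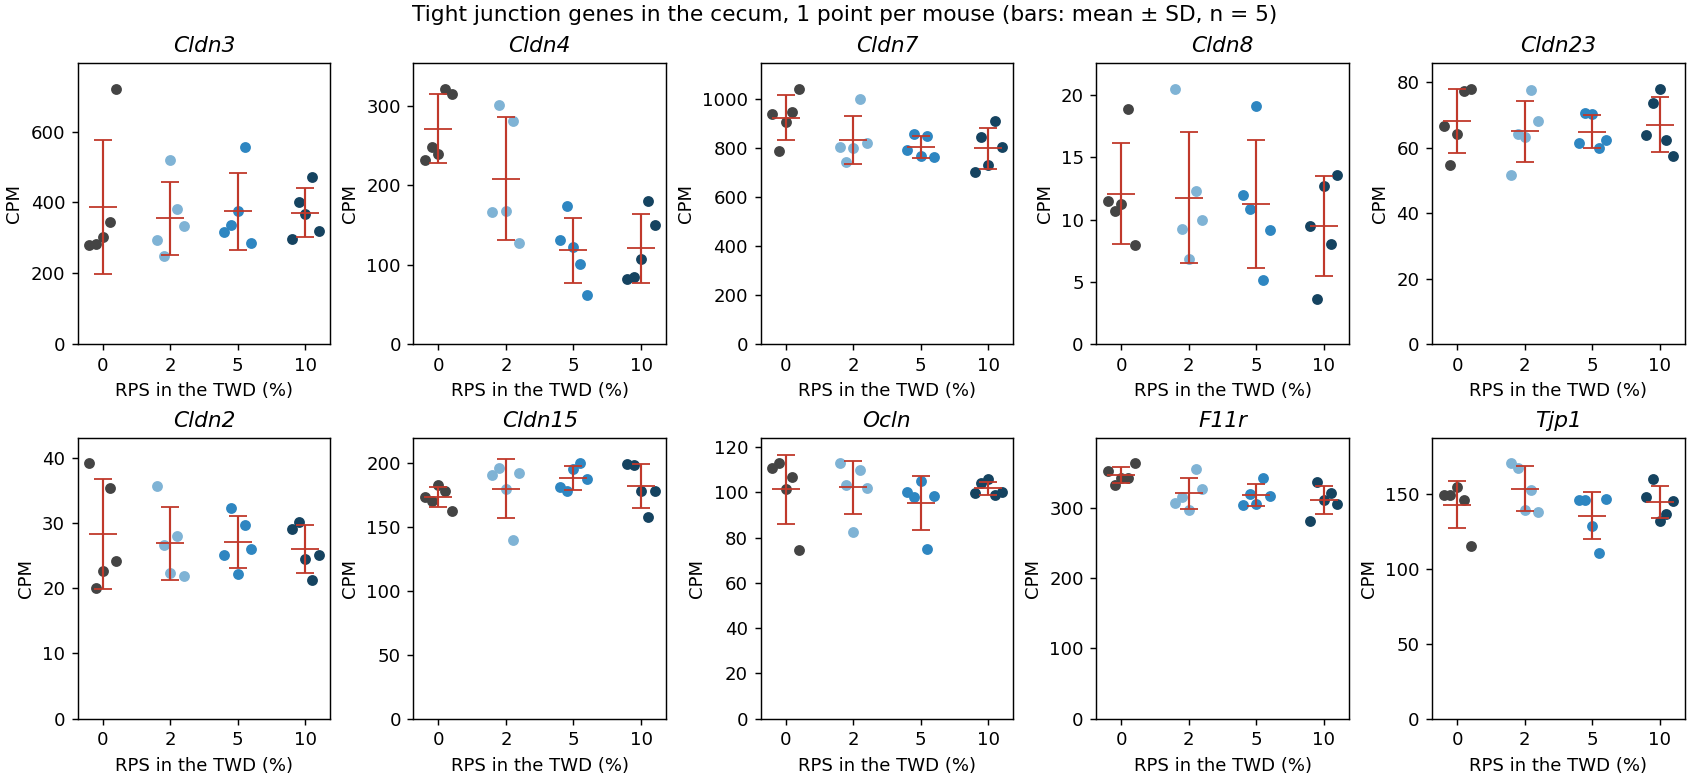
Normalized level of each tight junction gene (CPM, linear axis from 0) against the percentage of RPS in the TWD, with 1 point per mouse and the mean ± SD of 5 mice. Cldn4 lay between 232 and 321 CPM in mice fed 0% RPS and between 81.6 and 179.6 CPM in mice fed 10% RPS, while the groups of the other genes overlapped.

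Cldn4 (ENSMUSG00000047501, chr5:134973973-134975788 on GRCm39, minus strand) encodes claudin-4, a claudin known for tightening epithelia. Its levels in mice 1 to 5 fed 0% RPS were 232, 248, 239, 321, and 315 CPM. In mice fed 2% RPS they were 166, 300.2, 167, 281, and 127 CPM. In mice fed 5% RPS they were 131, 174, 122, 101, and 61.5 CPM. With 2% RPS, 3 of the 5 mice lay below every mouse fed 0% RPS. The levels with 10% RPS were 81.6, 84.0, 107, 179.6, and 149.6 CPM. Every mouse fed 5 or 10% RPS thus lay below every mouse fed 0% RPS.

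The mean of Cldn4 was 271 ± 43.6 CPM with 0% RPS, 208 ± 77.2 with 2%, 118 ± 41.2 with 5%, and 120.4 ± 42.9 with 10% (SD, n = 5). Against the controls, Cldn4 with 10% RPS had a log2 fold change of -1.17 (SE 0.28, 95% interval -1.76 to -0.58, edgeR's quasi-likelihood test, adjusted p = 0.0400). Across all genes tested, 1.04% were called in this comparison and 0.495% were called and lower, and in 3.2% every mouse fed 10% RPS lay below every mouse fed 0% RPS. With 5% RPS the log2 fold change of Cldn4 was -1.20 (SE 0.28, interval -1.79 to -0.61), and the adjusted p of 0.0676 missed the threshold. In that comparison 0.195% of all genes were called, and in 2.04% every mouse fed 5% RPS lay below every control. DESeq2's Wald test, the study's tool, called Cldn4 with 5% RPS too (adjusted p = 0.00174).

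With 2% RPS the log2 fold change of Cldn4 was -0.38 (interval -0.96 to 0.20, adjusted p = 0.911 by edgeR). A two-sided exact permutation test on log2 CPM gave p = 0.00794 with 10 and with 5% RPS, which is the smallest p that 5 mice against 5 can give, and p = 0.143 with 2%. The same exact permutation test, run for all 10 members and not adjusted, also gave p = 0.0159 for F11r with 10 and with 5% RPS, and p = 0.0397 for Cldn7 and for Cldn15 with 5% RPS. The share of all genes with such a p was not computed for the permutation test. For Cldn15 with 5% RPS edgeR's unadjusted p was 0.178. Between 10 and 5% RPS the log2 difference of Cldn4 was 0.03 (interval -0.55 to 0.61). The slope over the 4 diets was -0.12 per percent of RPS on the log2 scale (SE 0.03, adjusted p = 0.0484 by edgeR), and 1.11% of all genes were called in this trend. The comparisons with 0% RPS share the same 5 control mice.

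The call of Cldn4 with 10% RPS lay close to the threshold in edgeR's test, while DESeq2's Wald test gave an adjusted p of 0.00116. Omitting mouse 2 (0% RPS) or mouse 4 (10% RPS) kept the edgeR call, and omitting any 1 of the other 8 mice of these diets lost it, with log2 fold changes of -1.36 to -1.06 and adjusted p of 0.0178 to 0.123 over the 10 fits. Without the 3 libraries with a high mitochondrial share it was -1.10 (adjusted p = 0.0604 by edgeR). The call in the trend was kept in 7 of 20 such fits, those that omitted mouse 2 on 0%, mouse 3 or 5 on 2%, mouse 4 or 5 on 5%, or mouse 4 or 5 on 10% RPS, and its adjusted p ran from 0.0121 to 0.135.

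Levels of markers of other cells stood beside those of Cldn4 as follows. The summed level of 7 smooth muscle markers was 2476 to 5764 CPM (median 3284) with 0% RPS and 4048 to 6768 CPM (median 5936) with 10% RPS, and 1 of them, Actg2, was called higher, with 4 of 7 at an unadjusted p under 0.05 beside 19.5% of all genes. With 5% RPS it was 4211 to 9783 CPM (median 6542), and all 7 had an unadjusted p under 0.05 beside 13.3% of all genes, with Actg2 again called higher. The sum of 11 epithelial markers was 14770 (median 16720) to 19340 CPM with 0% RPS and 13500.0 (median 14580) to 17610 CPM with 10% RPS, with 0 of 11 called, 9 of 11 estimates lower, and 4 of 11 at an unadjusted p under 0.05. The sum of 7 goblet cell markers was 8389 to 11430 CPM (median 10670) with 0% and 6740 to 8132 CPM (median 6991) with 10% RPS, with Zg16 called lower and 5 of 7 at an unadjusted p under 0.05. The sum of 8 lymphocyte markers was 22.9 to 245 CPM (median 43.5) with 0% and 34.8 to 319 CPM (median 258) with 10% RPS, with 0 of 8 called. The sum of 9 surface colonocyte markers was 37080 to 42430 CPM (median 38160) with 0% and 27040 to 41860 CPM (median 31420) with 10% RPS. Its genes went both ways, Slc26a3 being called higher (log2 fold change 0.61, adjusted p = 0.0487 by edgeR) while 5 of 9 had lower estimates, and 5 of 9 had an unadjusted p under 0.05. Car1 alone made up most of this sum, with a mean of 25150 CPM with 0% and 18630 CPM with 10% RPS. Further marker lists had 0 called with 10% RPS. Estimates were lower for 0 of 8 crypt base and proliferating cell markers and 5 of 7 endothelial markers. They were lower for 6 of 6 markers of enteric neurons and glia and 1 of 3 mesothelial markers. In the same order 1, 3, 0, and 0 markers had an unadjusted p under 0.05 by edgeR, beside 19.5% of all genes. No marker of these lists was at 0 in all mice. With the smooth muscle markers as a covariate the log2 fold change of Cldn4 was -0.90 with 10% RPS (adjusted p = 0.147 by edgeR) and -0.84 with 5% RPS (adjusted p = 0.535). With 10% RPS and the epithelial markers it was -0.99 (adjusted p = 0.195 by edgeR). With the lymphocyte markers it was -1.17 (adjusted p = 0.0804), and with the surface colonocyte markers -1.21 (adjusted p = 0.0354), the 1 of these 4 covariates under which the call was kept.

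**Figure D2:**
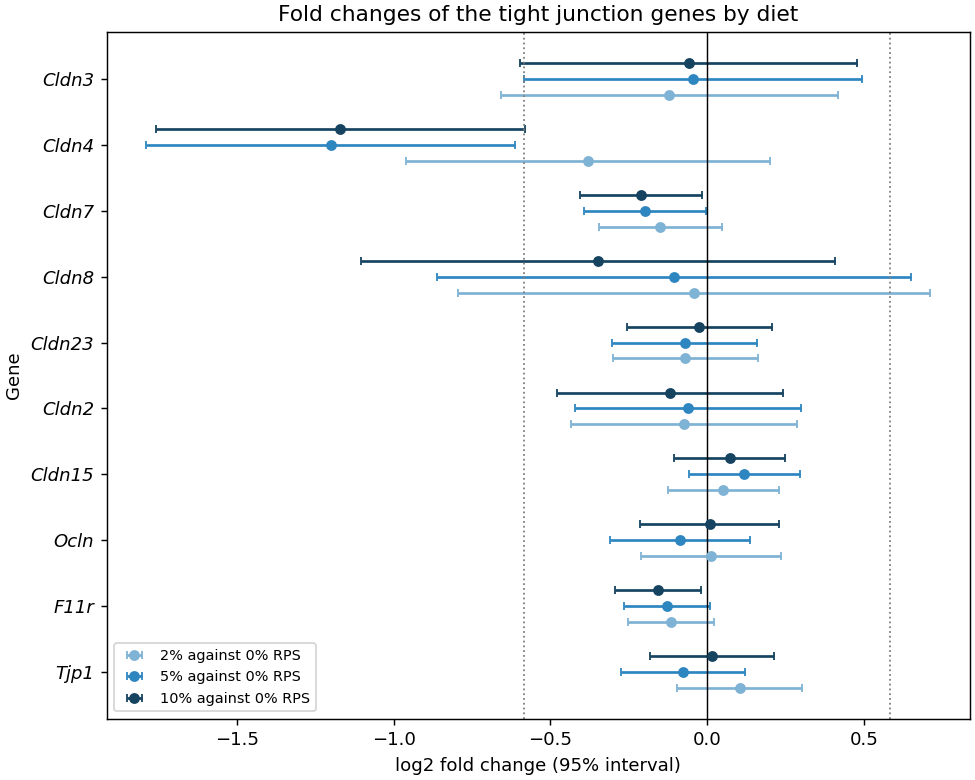
Log2 fold change of each tight junction gene against 0% RPS (x axis), with its 95% interval, for 2, 5, and 10% RPS, and dotted lines at a 1.5-fold change in each direction. The intervals of Cldn4 with 5 and 10% RPS lay below 0, as did those of Cldn7 and, with 10% RPS, that of F11r, and with 10% RPS that of Cldn4 ended at -0.58.

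Cldn3 (chr5:135015068-135016326, plus strand), the neighbour of Cldn4, encodes another claudin known to seal the junction. Its levels in mice 1 to 5 were 279, 282, 303, 345, and 721 CPM with 0% RPS. They were 296, 400.4, 366, 472, and 319 CPM with 10% RPS, so that the groups overlapped. The log2 fold change with 10% RPS was -0.06 (interval -0.60 to 0.48, adjusted p = 0.933 by edgeR). Without mouse 5 on 0% RPS, which had the highest Cldn3 of all mice, it was 0.31 (adjusted p = 0.462).

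The ratio of Cldn4 to Cldn3 counts was therefore also compared within each mouse, where library scaling cancels. The ratio in mice 1 to 5 was 0.829, 0.879, 0.788, 0.931, and 0.437 with 0% RPS. With 10% RPS it was 0.275, 0.2098, 0.294, 0.381, and 0.469. Mouse 5 on 0% RPS was the 1 control within the range of the mice fed 10% RPS. With 5% RPS the ratio was 0.181 to 0.517 and with 2% RPS it was 0.322 to 1.203. Against 0% RPS the difference in mean log2 ratio was -1.25 with 10% and -1.29 with 5% RPS (two-sided exact permutation test, p = 0.0159 for both, adjusted p = 0.0238 over 3 comparisons). With 2% RPS the difference was -0.39 (exact permutation p = 0.349, adjusted p = 0.349). With Cldn7 in place of Cldn3 the difference with 10% RPS was -1.02 (adjusted exact permutation p = 0.0119). Both ratios hold the same Cldn4 counts, so they are not independent of the Cldn4 comparison above.

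**Figure D3:**
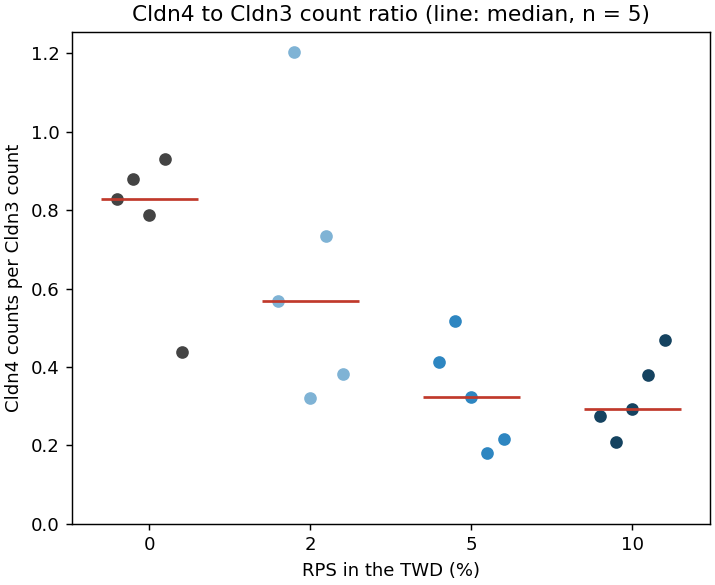
Cldn4 counts per Cldn3 count in each mouse (y axis, linear from 0) against the percentage of RPS in the TWD, with the median of 5 mice as a line. The median was 0.829 with 0% RPS and 0.294 with 10% RPS.

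Since Cldn3 and Cldn4 are neighbours whose levels differed in their relation to diet, the 250 bases before the start of each annotated transcript are shown on GRCm39, 5′ to 3′ on the gene's strand, with a GC box in capitals (GGGCGG, here on the reverse strand as CCGCCC). The windows are chr5:134975789-134976038 for Cldn4 and chr5:135014818-135015067 for Cldn3.
Cldn4: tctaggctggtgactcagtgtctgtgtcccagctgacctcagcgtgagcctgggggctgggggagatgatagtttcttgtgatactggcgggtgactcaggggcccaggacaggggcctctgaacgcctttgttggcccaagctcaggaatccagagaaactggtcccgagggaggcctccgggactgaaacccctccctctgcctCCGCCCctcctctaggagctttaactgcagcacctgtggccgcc
Cldn3: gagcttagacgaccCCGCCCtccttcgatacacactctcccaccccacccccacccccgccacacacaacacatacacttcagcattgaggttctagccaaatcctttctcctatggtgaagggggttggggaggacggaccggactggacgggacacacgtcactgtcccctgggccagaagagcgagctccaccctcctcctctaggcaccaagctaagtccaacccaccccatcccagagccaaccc
Each window held 1 GC box, which 42.8% of 17681 promoter windows of the same length held on either strand. Neither held TATAAA (9.30% of windows) or CCAAT (35.4% of windows) on either strand. These matches describe the letters only.

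Of the genes in the table that start within 250 kb of Cldn4, 15 besides Cldn4 were tested, a window chosen after values were seen. None was called with 10% RPS by edgeR, beside 1.04% of all genes tested. An unadjusted p under 0.05 was that of 1 of 15 (Dnajc30, -0.30, adjusted p = 0.227), beside 19.5% of all genes. The log2 fold changes of the 15 ran from -0.30 to 0.66, the highest being that of Cldn13, which had at most 17 counts in any mouse.

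**Figure D4:**
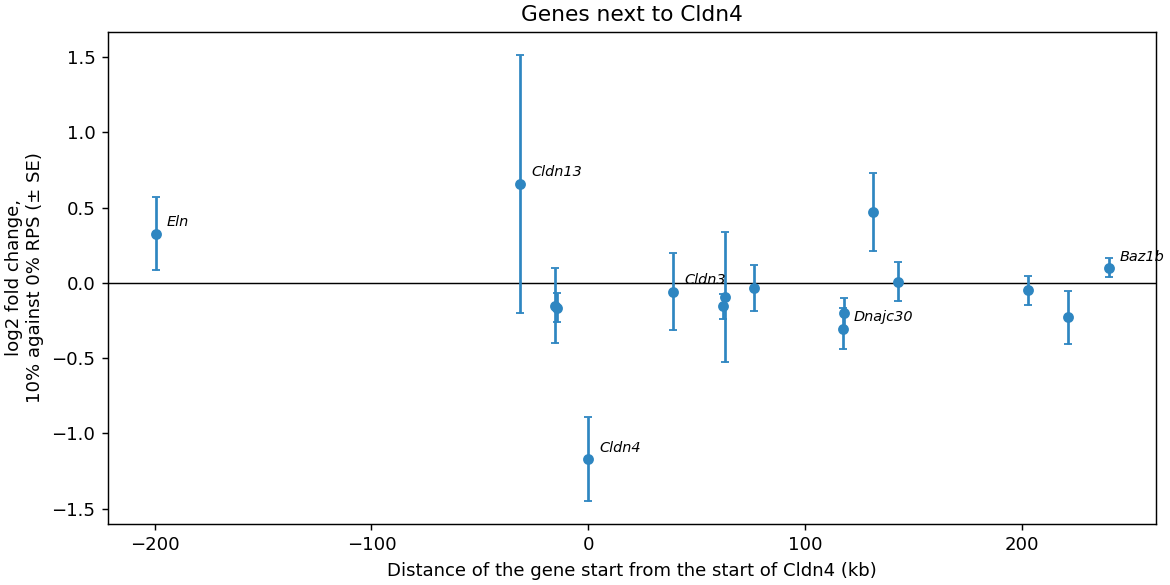
Log2 fold change with 10% RPS (± SE) of the genes next to Cldn4 against the distance of their start from that of Cldn4 in kb. Cldn4 stood at -1.17, and the 15 neighbours lay between -0.30 and 0.66.

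The other claudins known as sealing or differentiation claudins showed smaller differences. Cldn7 (chr11:69852648-69858711), abundant along the lateral membrane of gut epithelium, was 925 ± 91.9 CPM with 0% RPS and 799 ± 84.5 CPM with 10% RPS (SD, n = 5). All 5 mice fed 10% RPS were below the mean of the mice fed 0% RPS, but 3 of 5 lay within their range. The log2 fold change was -0.21 (interval -0.41 to -0.02, adjusted p = 0.226 by edgeR). Cldn8 (chr16:88357716-88360071), a claudin of the distal gut, was 7.98 to 18.9 CPM with 0% RPS and 3.64 to 13.6 CPM with 10% RPS. Its log2 fold change was -0.35 with a wide interval of -1.10 to 0.41. Cldn23 (chr8:36291866-36293713), known from differentiated surface epithelium, was 68.2 ± 9.77 CPM with 0% and 67.1 ± 8.44 CPM with 10% RPS (log2 fold change -0.02, interval -0.26 to 0.21).

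Cldn2 and Cldn15 encode claudins that form pores for cations and water. Cldn2 (chrX:138701480-138712135) was 20.1 to 39.2 CPM with 0% RPS and 21.2 to 30.2 CPM with 10% RPS, so that all mice fed 10% RPS lay within the range of the controls. Its log2 fold change was -0.12 (interval -0.48 to 0.24). Cldn15 (chr5:136995470-137004712) was 173 ± 7.60 CPM with 0% and 182 ± 17.2 CPM with 10% RPS, with a log2 fold change of 0.07 (interval -0.11 to 0.25). With 5% RPS it was 188 ± 9.33 CPM, and 3 of 5 mice lay above every control (log2 fold change 0.12, adjusted p = 0.602 by edgeR).

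Occludin, the adhesion molecule, and the scaffold were called in no comparison. Ocln (chr13:100630334-100689535) was 101 ± 15.4 CPM with 0% RPS and 102 ± 3.02 CPM with 10% RPS (log2 fold change 0.01, interval -0.21 to 0.23). Tjp1 (chr7:64945898-65177529) was 143 ± 15.9 CPM with 0% and 144 ± 10.7 CPM with 10% RPS (log2 fold change 0.02, interval -0.18 to 0.21). F11r (chr1:171265092-171292958), the gene of the junctional adhesion molecule JAM-A, was 352, 333, 343, 343, and 363 CPM in mice fed 0% RPS and 280.5, 336, 312, 321, and 306 CPM in mice fed 10% RPS. In each RPS diet 4 of 5 mice lay below every control, and 1 mouse did not. The log2 fold change of F11r was -0.16 with 10% RPS (interval -0.29 to -0.02), and its adjusted p of 0.200 by edgeR missed the threshold.

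With 10% RPS, 3 of the 10 members (Cldn4, Cldn7, and F11r) had an unadjusted p under 0.05 in edgeR's test, against 19.5% of all genes tested. The median log2 fold change was -0.09 over the members and 0.00405 over all genes. The 95% intervals of 7 members lay within a 1.5-fold change in either direction, the exceptions being Cldn3, Cldn4, and Cldn8. With 5% RPS 0 members were called, and 2 had an unadjusted p under 0.05 against 13.3% of all genes. With 2% RPS 0 members and 0 of all genes (0%) were called by edgeR, and 0 members had an unadjusted p under 0.05 against 5.77% of all genes. Between 10 and 5% RPS the members called were 0 and those of all genes 0%, and 0 members had an unadjusted p under 0.05 against 2.79%. In the trend, 1 member was called and 2 had an unadjusted p under 0.05 against 18.8%.

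Spread between mice on the same diet differed among members. The within-diet SD of log2 CPM was 0.63 for Cldn8, 0.48 for Cldn4, 0.42 for Cldn3, and 0.29 for Cldn2, all above the median of 0.24 over tested genes. The other 6 members were below it, down to 0.08 for F11r.

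The genes whose log2 CPM was most like that of Cldn4 over the 20 mice were Sema7a (Pearson's r = 0.947), Creb3l3 (0.925), Dgat2 (0.902), Gprc5a (0.895), and Arl14 (0.879). These mice share diets and scaling, and after the diet means were removed the values were 0.893, 0.8195, 0.755, 0.793, and 0.691. Sema7a encodes a membrane-anchored semaphorin, and its level was 83.5 ± 11.1 CPM with 0% and 22.2 ± 14.8 CPM with 10% RPS. Creb3l3, a transcription factor of lipid metabolism, was 163 ± 37.7 and 47.8 ± 28.3 CPM. Dgat2, which makes triglycerides, was 228 ± 34.2 and 121 ± 31.9 CPM. The genes were picked with the diet differences included, so their lower levels with 10% RPS follow from that choice. Among the members, r with Cldn4 was highest for Cldn7 (0.618) and lowest for Cldn15 (-0.562). With the diet means removed it was 0.421 for Cldn7 and -0.541 for Cldn15.

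Other genes of cell junctions were drawn from 9 lists that named 113 genes, of which 97 were in the table and 94 were tested. With 10% RPS 1 was called lower and 0 higher by edgeR, and their median log2 fold change was -0.03. In 31 of 94 the unadjusted p was below 0.05, of which 20 were lower and 11 higher. This was 33.0% of these genes, beside 19.5% of all genes tested, and the share called was 1 of 94 beside 1.04%. With 5 and 2% RPS 0 were called, with 24 (25.5%) and 6 (6.38%) at an unadjusted p under 0.05, beside 13.3 and 5.77% of all genes. The gene called was Epha2, a receptor tyrosine kinase that is known to phosphorylate claudin-4. It was 111 ± 30.1 CPM with 0% RPS (range 77.2 to 149.9) and 46.1 ± 12.98 CPM with 10% RPS (range 30.2 to 63.0), with no overlap. In 3.2% of all genes tested every mouse fed 10% RPS likewise lay below every control. The log2 fold change of Epha2 was -1.27 (SE 0.27, adjusted p = 0.0271 by edgeR). This call was lost when mouse 1, 4, or 5 on 0% RPS or mouse 1, 2, or 3 on 10% RPS was omitted, with adjusted p of 0.0523 to 0.0898. It was also lost with the smooth muscle markers as a covariate (-1.10, adjusted p = 0.112) and with the epithelial markers (-1.16, adjusted p = 0.1215). Over the 10 fits that each omitted 1 mouse the log2 fold change of Epha2 was -1.41 to -1.14.

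In the same list of actomyosin and signaling regulators, Cldnd1, a claudin domain protein, was lower by less than 1.5-fold (log2 fold change -0.40, adjusted p = 0.0376 by edgeR). Among 11 other transmembrane proteins, 0 were called. Ildr1, an angulin of tricellular contacts, had a log2 fold change of -0.48 (adjusted p = 0.0289) and was, with Epha2, 1 of 2 junction genes called lower in the trend, and Clmp, an adhesion molecule, had 0.40 (adjusted p = 0.114). Of 15 other scaffold and plaque proteins 0 were called, Patj having -0.14 (adjusted p = 0.242). Of 13 polarity genes 0 were called, the apical determinant Crb3 having -0.37 (adjusted p = 0.0707) and the kinase gene Prkcz 0.21 (adjusted p = 0.1795).

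In a list of serine proteases and inhibitors of the epithelial surface and proteins linked to them (Prss8, St14, Spint1, Spint2, the receptor gene F2rl1, and the adhesion gene Epcam, also used as an epithelial marker), 0 of 6 tested were called and all 6 had lower estimates, with Spint2 at -0.28 (adjusted p = 0.303) and St14, which encodes matriptase, at -0.25 (adjusted p = 0.375). Of 10 adherens junction genes 0 were called, with the p120 catenin gene Ctnnd1 at -0.54 (adjusted p = 0.0670) and Ctnna1 at -0.27 (adjusted p = 0.123). Of 6 desmosome genes 0 were called, with Pkp3 at -0.26 (adjusted p = 0.206) and Jup at -0.39 (adjusted p = 0.214). Of 9 gap junction genes 0 were called.

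Of the other claudins, 10 were in the table and 8 were tested, with 0 called. Cldn14 was at 0.90 (adjusted p = 0.159 by edgeR) with at most 20 counts in a mouse, and Cldn13 at 0.66 (adjusted p = 0.715). Cldn9 and Cldn34b2, below the filter, had 0 to 4 and 0 to 3 counts.

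**Figure D5:**
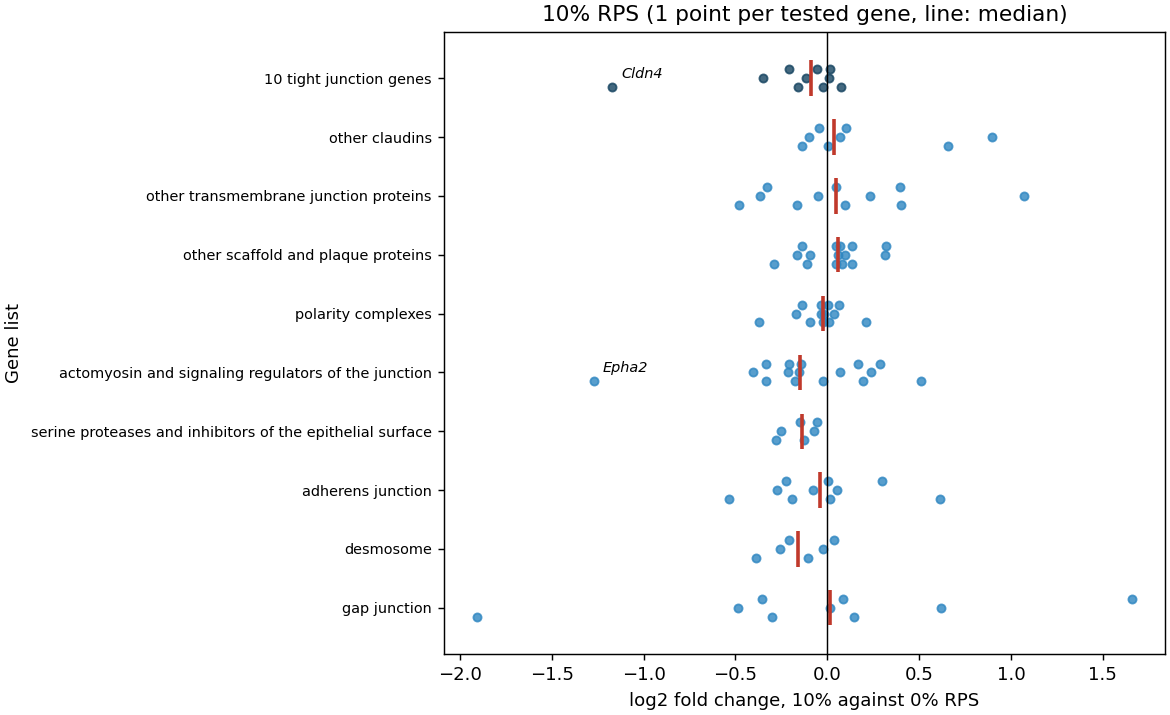
Log2 fold change with 10% RPS (x axis) of each tested gene in the 10 tight junction genes and in 9 other junction lists, with the median of each list as a line. Cldn4 at -1.17 and Epha2 at -1.27 were the genes called.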

How the data were processed

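Cecum RNA of 20 mice, 5 per diet, was measured by RNASeq of stranded poly(A) libraries. After quality trimming, reads were mapped to GRCm39 with the CLC Genomics Workbench, and the table that the authors deposited holds raw read counts per gene and mouse. The annotation release and the settings for strand and shared reads are not given in the sources used here, so reads of similar or overlapping genes may have been divided. Gene symbols, coordinates, and exon lengths came from GENCODE mouse release 39, which held 19827 of the identifiers.

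Genes were filtered with filterByExpr (minimum count 10, total 15), scaled by TMM, and fitted for the 4 diets in 1 robust quasi-likelihood model in edgeR 4.0.16 (R 4.3.3, limma 3.58.1). A gene was called where its fold change reached 1.5 in either direction and its Benjamini-Hochberg adjusted p, over all 15348 genes, was 0.05 or less, the trend having no fold change threshold. Levels are TMM-scaled CPM, and log2 CPM had a prior count of 2. The log2 ratio of Cldn4 to Cldn3 used counts plus 0.5. The models were tested on simulated data. Alternatives used DESeq2 1.42.0 and sva 3.50.0, other filters and scalings, marker covariates, and each mouse left out.

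The members, gene lists, and rule for named genes (all members, the junction genes called with 10 or 5% RPS, the 2 of smallest p in each junction list, and the 5 genes most correlated with a member called) were chosen with earlier results of these data known. Single values of 3 genes that this rule names are not reported here. A floor of 3 counts was at most 0.190 CPM, for counting error only. The labels do not say whether mice shared a cage or litter, and the p-values measure the spread between these mice. The colon libraries were not analysed here.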

Additional observations from a re-analysis of the deposited data

Results flagged for a closer look

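Over the 10 genes and 4 diets, 3 of 40 groups of 5 mice held a mouse farther from the others than Dixon's 95% limit of 0.71 allows, where chance gives about 1 in 20 groups. Cldn3 was 721 CPM in mouse 5 on 0% RPS, against 279 to 345 CPM in the other 4 mice. Tjp1 was 115 CPM in the same mouse, against 146 to 154.9 CPM in the others. Ocln was 74.9 CPM in mouse 4 on 5% RPS, against 97.9 to 105 CPM in the others. Both mice are among the 3 with the highest mitochondrial share of counts, and the part of that share in these values was not tested.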

How the results depend on the processing

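Cldn4 was lower with 10% RPS under every alternative run, with log2 fold changes of -1.36 to -0.90. The number of members called with 10% RPS was 0 in place of 1 with no filter on low counts (adjusted p = 0.0519), the epithelial, lymphocyte, or smooth muscle markers as covariates, 1 surrogate variable (adjusted p = 0.05 after rounding), the fold change tested against 1.5, or without the 3 libraries of high mitochondrial share. It was 0 to 1 with each mouse left out. In the trend it was 0 with no filter, the same 3 marker covariates, or 1 surrogate variable, and 0 to 1 with each mouse left out. With 5% RPS it was 1 with DESeq2's Wald test or with only the 2 diets compared. The other junction genes called were 3 with DESeq2's Wald test, with no fold change threshold, or without the 3 libraries, 0 with the same marker covariates or the fold change tested against 1.5, and 0 to 3 with each mouse left out. The cause was not tested.

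Directions that reversed were of members not called. With the epithelial covariate the log2 fold change with 10% RPS was 0.0401 for Cldn2, 0.212 for Cldn3, 0.110 for Cldn23, and -0.0138 for Ocln. With the lymphocyte covariate it was 0.0166 for Cldn2 and 0.0353 for Cldn23, and with the smooth muscle covariate 0.185 for Cldn8 and -0.0173 for Cldn15. Without the 3 libraries it was 0.304 for Cldn3, 0.0398 for Cldn23, -0.0735 for Ocln, and -0.0431 for Tjp1. With each mouse left out it was -0.214 to 0.0277 for Cldn2, -0.159 to 0.306 for Cldn3, -0.0908 to 0.0426 for Cldn23, -0.0700 to 0.0536 for Ocln, and -0.0403 to 0.0507 for Tjp1. The Cldn4 to Cldn3 ratio kept its direction and its side of the threshold in the 12 alternatives run for it, at -1.45 to -1.11 on the log2 scale, as did the ratio to Cldn7 at -1.02. Marker covariates were not run for the ratio. Marker covariates and the omission of the 3 libraries were chosen after seeing the data, except the epithelial covariate and 1 surrogate variable. No paired analysis was possible because the labels identify each mouse by a number of its own, and the numbers 1 to 5 used here only name the mice within a diet. The intervals of Cldn8 and Cldn3 with 10% RPS include changes of over 1.5-fold, and these genes had within-diet SDs of log2 CPM of 0.63 and 0.42.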
